A study of Mus musculus with 22 samples.

Results

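The 39 genes described here encode the machinery of the cell cycle and of DNA replication, and their RNA was followed through 22 bulk RNA sequencing libraries of a murine chronic lymphocytic leukemia (CLL) line. They were chosen by name, as a list of S-phase and mitosis genes, and the counts of all their transcripts were summed per gene, which gave 39 of the 17023 genes in the table. The list holds 19 genes that act from G1 into S phase (2 D-type cyclins, 3 genes of G1/S entry, 9 of origin licensing and the replicative helicase, 4 of DNA synthesis and nucleotide supply and 1 checkpoint kinase). The other 20 act in G2 and mitosis (4 cyclins and their kinase, 5 mitotic kinases and cofactors, 5 of the spindle checkpoint and the anaphase-promoting complex, 4 kinesins and kinetochore genes and 2 of chromosome structure). All 39 were expressed highly enough to be tested in every comparison.

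The cells were of the TCL1-355 TKO line, which came from an Eμ-TCL1 transgenic mouse, carries lesions of CDKN2A and CDKN2B, has a B-cell receptor that binds phosphatidylcholine and grows spontaneously in culture. NFKBIE-ko cells had been edited in Nfkbie with CRISPR/Cas9 and NFKBIE-wt cells had been mock-edited, so that both genotypes share the transgene and the other lesions. Each genotype was propagated in 1 mouse for 21 days, transplanted intraperitoneally into 5 mice and recovered after 10 days from the peritoneal cavity (PC, n = 4) and the spleen (n = 4) without purification, so that cells of the host remained. The in vitro samples (n = 3 per genotype) were cells from the spleens of 3 mice that were kept in culture for 2 weeks. Genotype and propagation mouse cannot be told apart, and all samples descend from 1 line.

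A cell enters the cycle when D-type cyclins with CDK4 and CDK6 release E2F factors, which switch on the genes that license origins, unwind and copy DNA and supply nucleotides. Genes of G2 and mitosis are switched on later, and many of them share a CHR element beside CCAAT boxes bound by NF-Y. RNA levels of both sets are widely read as a measure of proliferation. In CLL the cells of lymphoid tissues divide, whereas those outside the tissues are mostly at rest.

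RefSeq promoters (GRCm38.p6, 250 bases before to 50 bases after a start) were found for 32 of the 39 genes and searched on both strands for an E2F site (TTTCCCGC, TTTGGCGC, TTTCGCGC or TTTGCCGC), the CHR (TTTGAA or TTCGAA) and the NF-Y box (CCAAT). An E2F site was found in 6 of 15 G1/S genes (40%), namely Cdc6, Cdt1, Mcm3, Mcm5, Mcm6 and Mcm7, in 1 of 17 G2 and mitosis genes (5.88%, Cdk1) and in 2.6% of 27025 genes. A CHR together with an NF-Y box stood in 13 of 17 G2 and mitosis genes (76.5%), in 13.3% of the G1/S genes and in 8.61% of all genes. A match describes these letters and does not show that a factor is bound. The first 3 promoters below are shown for these motifs, with the motifs in capitals. They belong to Mcm6, a helicase subunit (chr1:128359656-128359955, minus strand, with 3 E2F matches, 2 of them overlapping, and 2 NF-Y boxes), Cdc20, the activator of the anaphase-promoting complex (chr4:118437294-118437593, minus strand, with 1 CHR and 2 NF-Y boxes) and Ccnb2, a mitotic cyclin (chr9:70421505-70421804, minus strand, with 2 CHR matches and 3 NF-Y boxes). The promoters of the upstream (chr17:47504801-47505100, plus strand) and the downstream start (chr17:47593217-47593516, plus strand) of Ccnd3 are shown because the RNA from these starts differed between compartments. Both windows were found once, base for base, on chromosome 17 of GRCm39, where the start of the former is that of the transcript Ccnd3-204 and the start of the latter lies 28 bases from that of Ccnd3-205. The former held none of the motifs and the latter held 1 NF-Y box. Ccnd3-215, the upstream transcript tested below, starts at 47815767, inside the upstream window, which begins at 47815726 on GRCm39. Most of that window thus lies downstream of this start, and the absence of motifs does not describe the bases before it.
Mcm6: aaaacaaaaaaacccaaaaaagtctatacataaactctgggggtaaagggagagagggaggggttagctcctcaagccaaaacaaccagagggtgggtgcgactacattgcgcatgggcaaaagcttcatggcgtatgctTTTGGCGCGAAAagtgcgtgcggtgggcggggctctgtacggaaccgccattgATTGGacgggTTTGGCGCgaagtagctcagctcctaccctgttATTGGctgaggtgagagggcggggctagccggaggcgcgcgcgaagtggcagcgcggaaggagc
Cdc20: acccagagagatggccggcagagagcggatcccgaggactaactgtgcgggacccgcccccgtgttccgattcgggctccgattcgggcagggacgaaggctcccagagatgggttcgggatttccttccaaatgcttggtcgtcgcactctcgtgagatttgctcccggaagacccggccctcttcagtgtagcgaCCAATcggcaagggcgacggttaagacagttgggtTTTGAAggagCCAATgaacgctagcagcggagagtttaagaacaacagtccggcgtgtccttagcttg
Ccnb2: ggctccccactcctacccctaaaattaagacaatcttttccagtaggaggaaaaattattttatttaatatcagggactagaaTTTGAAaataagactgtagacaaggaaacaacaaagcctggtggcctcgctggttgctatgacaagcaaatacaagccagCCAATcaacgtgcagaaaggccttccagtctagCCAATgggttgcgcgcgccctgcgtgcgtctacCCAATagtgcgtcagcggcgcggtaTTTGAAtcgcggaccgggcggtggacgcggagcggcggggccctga
Ccnd3 upstream: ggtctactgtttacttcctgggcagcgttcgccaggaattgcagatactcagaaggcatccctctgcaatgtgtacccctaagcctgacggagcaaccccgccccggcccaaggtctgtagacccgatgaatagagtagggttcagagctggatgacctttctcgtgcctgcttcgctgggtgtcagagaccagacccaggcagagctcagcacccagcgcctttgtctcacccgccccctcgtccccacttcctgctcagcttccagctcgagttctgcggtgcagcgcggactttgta
Ccnd3 downstream: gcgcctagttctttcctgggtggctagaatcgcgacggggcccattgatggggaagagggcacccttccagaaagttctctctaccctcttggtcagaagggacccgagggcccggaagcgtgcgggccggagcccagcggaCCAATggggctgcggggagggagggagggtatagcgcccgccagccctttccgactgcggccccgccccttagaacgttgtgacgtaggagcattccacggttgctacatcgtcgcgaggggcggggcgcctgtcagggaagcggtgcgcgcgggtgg

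Total estimated counts ranged from 24036763 to 26581304 per library. Of the 22 libraries, 20 resembled their own compartment most over 12153 genes outside the lists, and 2 did not. The spleen labelled NFKBIE-wt replicate 4 correlated with the other NFKBIE-wt cultures (r = 0.87) more than with the other NFKBIE-wt spleens (r = 0.09), and the culture labelled NFKBIE-wt replicate 3 correlated with the NFKBIE-wt spleens (r = 0.80) and not with the other NFKBIE-wt cultures (r = -0.07). Summed erythroid markers were 6.92 CPM (counts scaled to the size of the library) in the former, against 247 to 1673 CPM in the other NFKBIE-wt spleens, and 1184 CPM in the latter, against 12.4 to 20.6 CPM in the other NFKBIE-wt cultures. The labels were kept, and several results that rest on these libraries are given with and without them. Other values of the NFKBIE-wt spleen and culture groups are given with all libraries only. The B-cell marker Cd79a, a part of the B-cell receptor complex, was expressed in every library. Nfkbie RNA, which an edit need not lower, was 67.3 to 91.2 CPM in NFKBIE-wt PC and 47.2 to 64.9 CPM in NFKBIE-ko PC, and the genotypes overlapped in the spleen. In vitro it was 48.2 to 59.9 CPM in NFKBIE-ko cells and 54.3 CPM in the culture labelled NFKBIE-wt replicate 3, and without that library the NFKBIE-wt cultures (117 and 141 CPM) did not overlap with them.

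Per length, in TPM (counts scaled to transcript length and library size) averaged over the 6 groups, the level was 484 for Pcna, the clamp of the replicative polymerases, 281 for Top2a, a DNA topoisomerase, 277 for Ube2c, a ubiquitin-conjugating enzyme of mitotic exit, and 235 for the helicase subunit Mcm7. The lowest levels were 23.0 TPM for Cdc6, which loads the helicase, 17.1 for the kinetochore motor Cenpe and 12.3 for Cenpf. In the PC the order differed. Ccnd3, a D-type cyclin, stood at 139 TPM in NFKBIE-wt cells, close to Mcm6 at 140 and Mcm7 at 149. In NFKBIE-ko cells it stood at 121 TPM, beside Mcm6 at 123 and above Mcm7 at 109.5. Over all groups it was in the lower part of the order at 81.5. The heat map of all genes by library separates the PC from the other compartments, with Ccnd3 in the opposite direction.

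**Figure D1:**
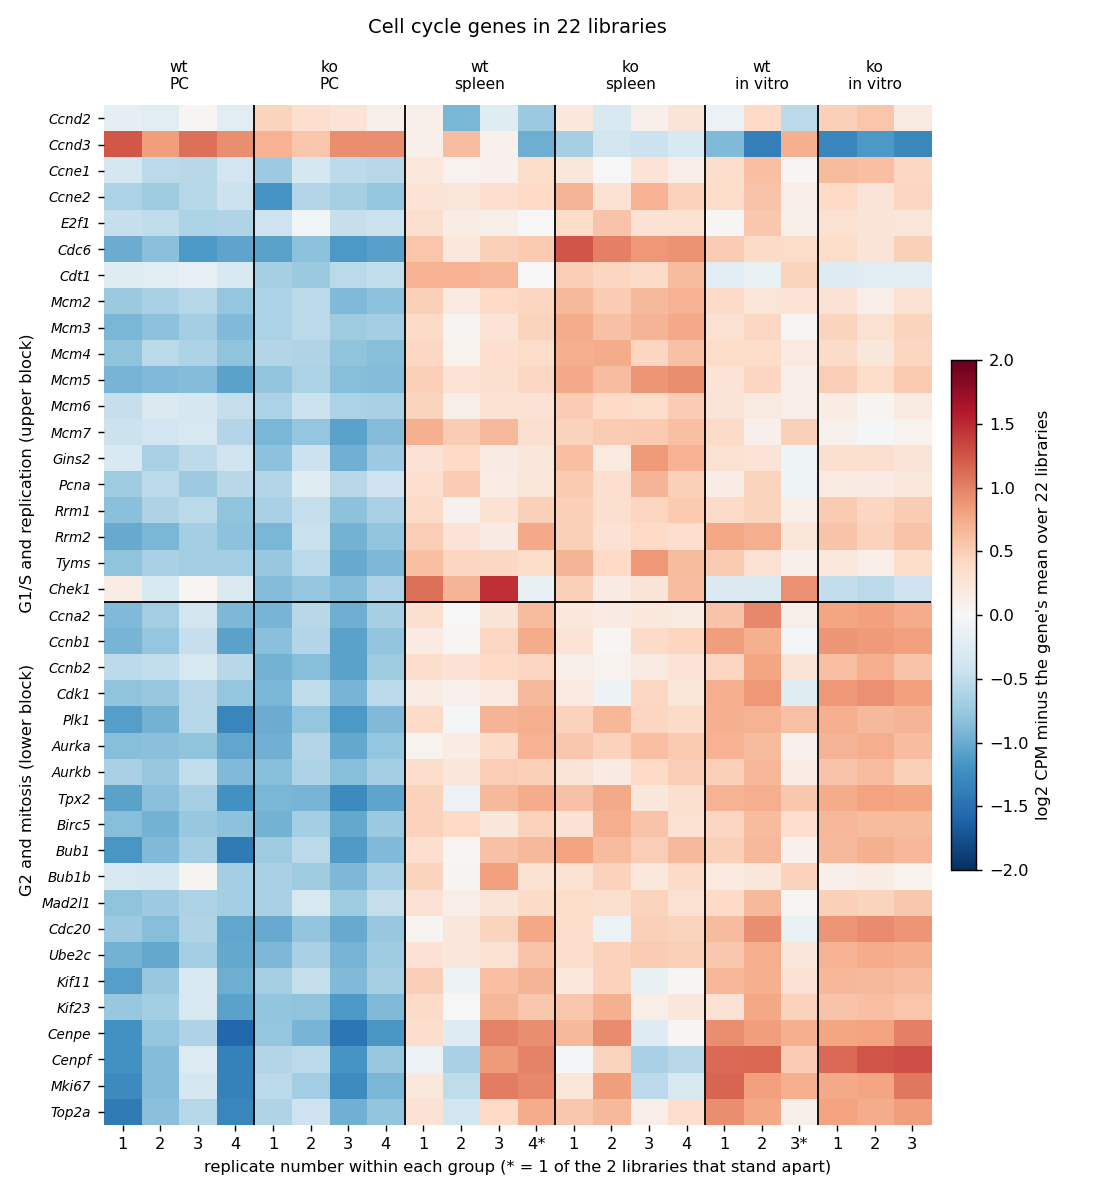
Heat map of the 39 genes (down the side, by role) in the 22 libraries (across, by group), as log2 CPM relative to the mean of each gene. The PC libraries were low for most genes and high for Ccnd3, and the spleen labelled NFKBIE-wt replicate 4 and the culture labelled NFKBIE-wt replicate 3 differed from the rest of their groups in Ccnd3, Chek1 and Cdt1.

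Libraries of the PC held less RNA of almost every cell cycle gene than those of the spleen in both genotypes. In bulk samples fewer cycling cells and less RNA per cycling cell cannot be told apart. A gene was called when its Benjamini-Hochberg adjusted p over all genes tested was below 0.05 in edgeR's quasi-likelihood test. Of the 39 genes, 37 were lower and 1 was higher in NFKBIE-wt PC than in NFKBIE-wt spleen, where 14.3% of all 12370 genes were called lower and 14.3% higher. The NFKBIE-ko PC likewise had 37 lower and 1 higher than the NFKBIE-ko spleen, where 30.1% of all 12628 genes were lower and 29.6% higher. The median log2 fold change over the 39 genes was -1.05 and -1.14, and over all genes it was -0.01 for both. Every PC library lay below every spleen for 33 (NFKBIE-wt) and 36 (NFKBIE-ko) of the 39 genes. That held for 17.1% and 27.8% of 12330 genes, and 16.2% and 27.9% lay wholly above.

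Mki67, whose product coats mitotic chromosomes and serves as the standard proliferation marker, was 197, 259, 371 and 186 CPM in the 4 NFKBIE-wt PC libraries and 551, 335, 970 and 922 CPM in the NFKBIE-wt spleens. Thus 1 PC library exceeded the lowest spleen, and the log2 fold change was -1.42 ± 0.35 (SE, adjusted p = 0.0169). The call was lost without NFKBIE-wt PC replicate 1 (adjusted p = 0.0574) or replicate 4 (adjusted p = 0.0521). In NFKBIE-ko cells Mki67 was 328, 293, 199 and 253 CPM in the PC and 564, 845, 331 and 381 CPM in the spleen, which did not overlap by a narrow margin (-0.99 ± 0.28, adjusted p = 0.0127). Mcm2, a subunit of the helicase that is loaded onto origins, was tighter, at 122, 130, 138 and 119 CPM in the NFKBIE-wt PC and 283, 232, 270 and 275 CPM in the NFKBIE-wt spleen. The groups were far apart (-1.03 ± 0.09, adjusted p = 0.000352). Mcm2 in NFKBIE-ko cells was 132, 141, 110.2 and 116 CPM in the PC and 321, 291, 319 and 331 CPM in the spleen (-1.34 ± 0.09, adjusted p = 2.53e-06).

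All 9 genes of licensing and the helicase were lower in the PC of both genotypes, by -0.65 (Mcm6) to -1.43 (Cdc6) on the log2 scale in NFKBIE-wt cells and by -1.03 (Mcm6) to -2.06 (Cdc6) in NFKBIE-ko cells. Cdc6 was 24.8, 27.6, 22.1 and 23.6 CPM in the NFKBIE-wt PC and 72.02, 57.3, 68.4 and 71.1 CPM in the NFKBIE-wt spleen (-1.43 ± 0.11, adjusted p = 0.000233). In NFKBIE-ko cells it was 23.3, 27.8, 22.2 and 23.1 CPM in the PC and 118, 99.5, 90.1 and 92.0 CPM in the spleen, so that the genotypes overlapped in the PC and did not overlap in the spleen (-2.06 ± 0.12, adjusted p = 9.36e-07). Mcm5 (-1.28 ± 0.09, adjusted p = 0.000233, and in NFKBIE-ko cells -1.59 ± 0.09, adjusted p = 9.36e-07) was among the genes with the lowest p in both genotypes, as were Mcm3 (-1.34 ± 0.07) and Mcm7 (-1.43 ± 0.08) in NFKBIE-ko cells. All 4 genes of DNA synthesis and nucleotide supply were lower, from -0.92 (Pcna) to -1.26 (Rrm2, a subunit of ribonucleotide reductase) in NFKBIE-wt cells and from -0.96 (Pcna) to -1.45 (Tyms, thymidylate synthase) in NFKBIE-ko cells. The S-phase cyclins Ccne1 and Ccne2 and the transcription factor E2f1 were lower by -0.62, -0.87 and -0.68 in NFKBIE-wt cells. The corresponding values in NFKBIE-ko cells were -0.70, -1.33 and -0.73. Chek1, the replication checkpoint kinase, was lower by -0.95 ± 0.30 (adjusted p = 0.0413) and -1.17 ± 0.11 (adjusted p = 1.94e-05).

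All 20 genes of G2 and mitosis were lower in the PC of both genotypes. Among the 4 cyclins and their kinase the log2 fold change ranged from -0.81 (Ccnb2) to -1.12 (Ccnb1) in NFKBIE-wt cells and from -0.92 (Cdk1) to -1.11 (Ccnb1) in NFKBIE-ko cells. The kinase Plk1, which drives mitotic entry, was lower by -1.40 ± 0.20 and -1.44 ± 0.10, and Tpx2, the activator of Aurora A, by -1.37 ± 0.19 and -1.53 ± 0.13. Birc5 (survivin), a partner of Aurora B, was 45.5, 42.7, 48.5 and 46.2 CPM in the NFKBIE-wt PC and 112.5, 108.5, 96.1 and 113 CPM in the NFKBIE-wt spleen (-1.21 ± 0.09, adjusted p = 0.000233). The 5 genes of the spindle checkpoint and the anaphase-promoting complex ranged from -0.71 (Bub1b) to -1.40 (Bub1) in NFKBIE-wt cells and from -0.90 (Mad2l1) to -1.46 (Bub1) in NFKBIE-ko cells. The weakest calls were for Cenpf, at -1.25 ± 0.38 (adjusted p = 0.0382) and -0.63 ± 0.24 (adjusted p = 0.0477), which ranged from 33.0 to 104 CPM between the 4 NFKBIE-wt spleens. Without the spleen labelled NFKBIE-wt replicate 4 the comparison had 36 lower genes, Cenpf no longer being called, and 1 higher gene, against 17.4% and 18.3% of all genes.

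The PC also differed from the cultures. In NFKBIE-wt cells 34 genes were lower and 0 were higher in the PC than in vitro, with 11.0% of all 12571 genes lower and 10.4% higher, and a median of -1.09 over the 39 genes against -0.01 over all genes. In NFKBIE-ko cells 37 were lower and 1 was higher, with 31.8% of all 12721 genes lower and 36.0% higher, and a median of -1.24 against 0.03. The comparisons with the spleen and with the cultures share the PC libraries. Mki67 in vitro was 1070.0, 839 and 789 CPM in NFKBIE-wt and 804, 822 and 989 CPM in NFKBIE-ko cells, above every PC library (-1.79 ± 0.26, adjusted p = 0.00557, and -1.65 ± 0.16, adjusted p = 3.66e-05). Mcm2 was 266, 243 and 247 CPM in NFKBIE-wt and 251, 224 and 252 CPM in NFKBIE-ko cultures, again above every PC library (-0.95 ± 0.09, adjusted p = 0.00225, and -0.90 ± 0.09, adjusted p = 8.64e-06). Within each genotype, 20.1% (NFKBIE-wt) and 36.8% (NFKBIE-ko) of 12330 genes lay wholly lower in the PC than in vitro.

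By role, the genes of G2 and mitosis had the greater differences between PC and culture, with a median log2 fold change of -1.30 in NFKBIE-wt and -1.47 in NFKBIE-ko cells, against -0.77 and -0.97 for the genes of G1/S and replication. Cdc20 was 54.2, 63.4, 54.1 and 64.3 CPM in the NFKBIE-ko PC and 200.5, 210.4 and 201 CPM in the NFKBIE-ko cultures (-1.74 ± 0.07, adjusted p = 4.35e-08). Tpx2 (-1.76 ± 0.08, adjusted p = 8.05e-08) and Ube2c (-1.46 ± 0.07) had comparably low p, and Cenpe and Cenpf reached -1.87 ± 0.14 and -1.93 ± 0.13. In NFKBIE-wt cells the lowest p were those of Cdc6 (-1.39 ± 0.10), Birc5 (-1.28 ± 0.10) and Mcm5 (-1.19 ± 0.11). The 5 genes that were not called in NFKBIE-wt cells were Ccnd2, Ccnd3, Cdt1 (-0.26 ± 0.17), Chek1 (-0.28 ± 0.32) and Bub1b (-0.56 ± 0.18, adjusted p = 0.0561). Cdt1, the licensing factor that is degraded in S phase, was 53.6, 54.4, 56.2 and 50.8 CPM in the NFKBIE-wt PC, and 54.1, 57.2 and, in the library labelled replicate 3, 86.3 CPM in vitro. Without that library Cdt1 and Chek1 had log2 fold changes of -0.00 and 0.25 and were not called, and 34 genes were lower and 1 was higher, against 17.4% and 20.2% of all genes.

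**Figure D2:**
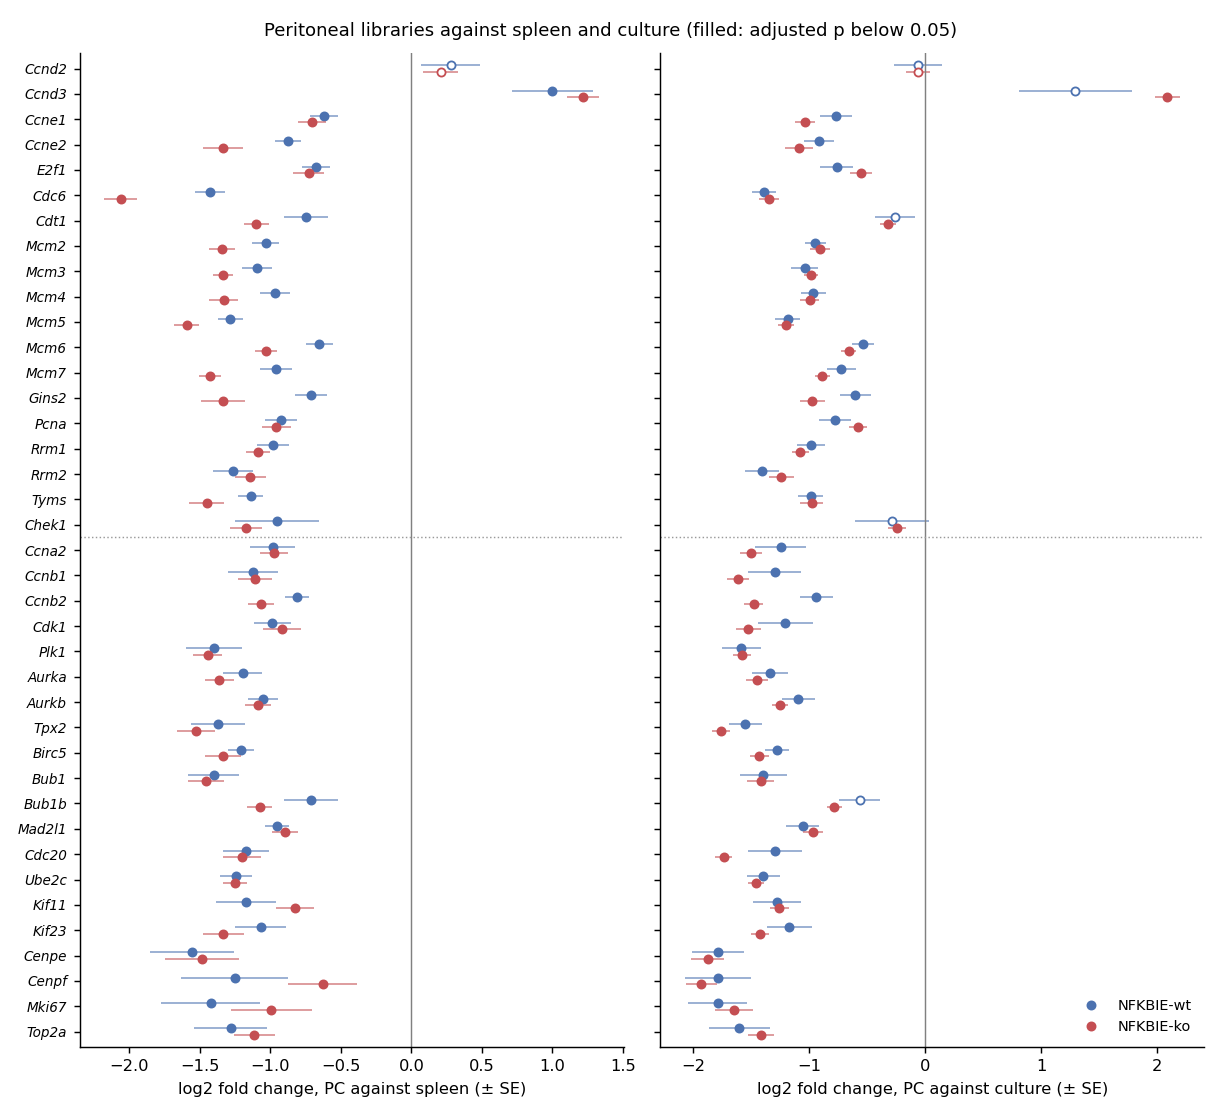
Log2 fold change (± SE) of each of the 39 genes between PC and spleen and between PC and in vitro culture, for NFKBIE-wt and NFKBIE-ko cells, with called genes as filled points. Nearly all points lie below 0, and Ccnd3 lies above 0 in all 4 comparisons.

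Non-leukemic cells moved with these comparisons. The summed level of 9 myeloid markers, among them Lyz2 and Csf1r, was 572 to 1747 CPM in the NFKBIE-wt PC and 3841 to 5643 CPM in the NFKBIE-ko PC, 28.9 to 356 CPM in the spleens and 35.6 to 92.1 CPM in vitro. All 9 were higher in the PC than in the spleen of both genotypes. In the NFKBIE-ko cultures C1qa and C1qc were at 0. Erythroid markers went the other way. Of those tested, 3 of 6 were lower in the NFKBIE-wt PC than in the spleen, and 8 of 8 in NFKBIE-ko cells. Their sum was 4.08 to 59.5 CPM in the NFKBIE-ko PC and 47.5 to 725 CPM in the NFKBIE-ko spleen. Of 5 granulocyte markers, 0 were lower in the NFKBIE-wt PC and 4 in the NFKBIE-ko PC. The part of the non-leukemic cells in the lower level of the cell cycle genes was not tested. The summed level of 7 B-lineage markers was 2679 to 3501 CPM in the PC, 1450 to 2096 CPM in the spleens and 2138 to 2935 CPM in vitro. In this sum every PC library was above every spleen, but the 7 markers did not move together. Against the spleen, 2 were higher and 2 lower in the NFKBIE-wt PC, and 4 higher and 1 lower in the NFKBIE-ko PC. Of all genes 14.3% were higher and 14.3% lower in the former and 29.6% and 30.1% in the latter.

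The D-type cyclins did not follow the other genes. Ccnd3, the partner of CDK4 and CDK6 that B cells use in germinal centres, was 195, 147, 177 and 157 CPM in the NFKBIE-wt PC and 88.3, 126, 87.7 and, in the library labelled replicate 4, 41.7 CPM in the NFKBIE-wt spleen. Every PC library lay above every spleen (1.00 ± 0.29, adjusted p = 0.0305). In NFKBIE-ko cells it was 133, 122, 157 and 157 CPM in the PC and 52.0, 63.6, 61.1 and 66.9 CPM in the spleen (1.22 ± 0.11, adjusted p = 1.66e-05). The cultures were lower still, at 44.4, 31.9 and, in the library labelled replicate 3, 134.9 CPM for NFKBIE-wt and 33.3, 37.1 and 33.8 CPM for NFKBIE-ko. The difference between PC and culture was called in NFKBIE-ko cells (2.09 ± 0.11, adjusted p = 1.61e-07). In NFKBIE-wt cells it was not called with all libraries (1.296 ± 0.48, adjusted p = 0.096), and was called without the library labelled replicate 3 (2.20, adjusted p = 0.000383). Without the spleen labelled NFKBIE-wt replicate 4, the difference between PC and spleen in NFKBIE-wt cells was 0.77 and was still called. It was not called (adjusted p = 0.0611 to 0.084) when any 1 of 5 other libraries was left out, namely NFKBIE-wt PC replicate 1, 3 or 4 or NFKBIE-wt spleen replicate 1 or 3.

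Ccnd2 behaved otherwise. It was 127, 125, 147 and 125 CPM in the NFKBIE-wt PC, 155, 76.4, 123 and 86.5 CPM in the NFKBIE-wt spleen and 133, 191 and 99.2 CPM in the NFKBIE-wt cultures. In NFKBIE-ko cells it was 197, 182, 175 and 156 CPM in the PC, 167, 118, 155 and 172 CPM in the spleen and 202, 212 and 164 CPM in vitro. The compartments overlapped in both genotypes, and no difference was called (0.28 ± 0.21 and 0.21 ± 0.12 for PC against spleen, and -0.06 ± 0.21 and -0.06 ± 0.10 for PC against in vitro, in NFKBIE-wt and NFKBIE-ko cells).

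Ccnd3 transcripts start at 2 places on chromosome 17 of GRCm39 (plus strand), near 47815767 and 47904364, and the 2 classes were compared after the values had been seen. Summed over the transcripts of the upstream start, the level was 99.9 to 140 TPM in the NFKBIE-wt PC, 59.3 to 95.2 TPM in the NFKBIE-ko PC, 17.7 to 25.8 TPM in the NFKBIE-ko spleen and 0.304 to 4.12 TPM in the NFKBIE-ko cultures. In NFKBIE-wt cells it was 50.0 to 69.6 TPM in the spleen and 1.45 and 1.89 TPM in vitro, whereas the spleen labelled NFKBIE-wt replicate 4 and the culture labelled NFKBIE-wt replicate 3 had 3.03 and 89.0 TPM. RNA of the downstream start varied less, from 12.9 to 29.5 TPM in the NFKBIE-wt PC, 32.8 to 47.9 TPM in the NFKBIE-ko PC, 14.3 to 37.9 TPM in the spleens and 26.8 to 41.1 TPM in vitro. The upstream start thus gave 85.8% ± 4.12 (SD, n = 4) of Ccnd3 RNA in the NFKBIE-wt PC and 63.0%, 70.9%, 81.8% and, in the library labelled replicate 4, 7.38% in the NFKBIE-wt spleen, so that 1 spleen exceeded the lowest PC library at 79.9%. In the NFKBIE-wt cultures it gave 3.39%, 6.50% and, in the library labelled replicate 3, 69.9%. In NFKBIE-ko cells the share was 63.3% ± 7.62 (n = 4) in the PC, 39.1% ± 2.44 (n = 4) in the spleen and 6.17% ± 6.17 (n = 3) in vitro, without overlap. Tested per transcript, Ccnd3-215 of the upstream start was higher in the NFKBIE-ko PC than in the cultures by 6.19 ± 1.125 on the log2 scale. The cultures held 0, 0 and 2.23 TPM of it, so that this size rests on values near the floor. Against the spleen Ccnd3-215 was higher by 1.93 ± 0.22. Ccnd3-205 of the downstream start was higher by 0.72 ± 0.15 against the cultures and by 0.56 ± 0.13 against the spleen. In NFKBIE-wt cells neither was called with all libraries, at 2.22 ± 1.37 and 1.45 ± 0.79 for Ccnd3-215 (adjusted p = 0.431 and 0.36) and at -0.61 ± 0.30 and -0.40 ± 0.37 for Ccnd3-205. The division of reads between transcripts of 1 gene is an estimate of the quantification and is less certain than the sum per gene.

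**Figure D3:**
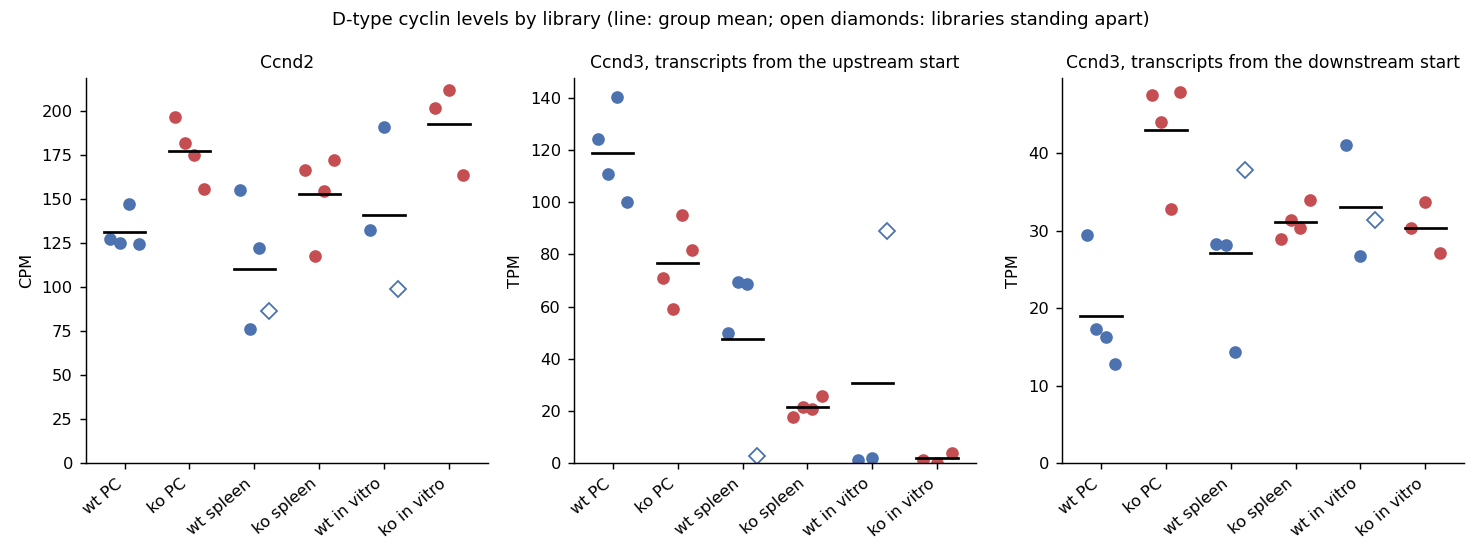
CPM of Ccnd2 (left) and TPM of the Ccnd3 transcripts of the upstream start (middle) and of the downstream start (right) in each library, by group, with the group mean as a line and open diamonds for the 2 libraries that stood apart. RNA of the upstream start lay between 59.3 and 140 TPM in the PC and at or below 4.12 TPM in the cultures other than the open diamond at 89.0 TPM, whereas Ccnd2 overlapped between compartments.

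Spleen and culture were compared after the data had been seen. In NFKBIE-wt cells 0 of the 39 genes and 0% of all 12332 genes were called higher or lower in edgeR's test, where 136 genes and 0 of the 39 had an unadjusted p below 0.05. Without the spleen labelled NFKBIE-wt replicate 4 and the culture labelled NFKBIE-wt replicate 3, Ccnd3 (1.40), Cdt1 (0.86) and Chek1 (1.41) were higher in the spleen and Cdk1 (-0.65) was lower, against 3.43% and 3.23% of all genes. In NFKBIE-ko cells 12 genes were higher and 10 were lower in the spleen, against 20.3% and 18.4% of all 12355 genes. The direction followed the phase, since 11 of the 12 higher genes belonged to G1/S and replication and 9 of the 10 lower ones to G2 and mitosis. The exceptions were Bub1b (0.24), a kinase of the spindle checkpoint, and Ccne1 (-0.38).

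Chek1 was 71.4, 57.1, 61.2 and 78.2 CPM in the NFKBIE-ko spleen and 36.3, 35.3 and 38.5 CPM in the NFKBIE-ko cultures (0.87 ± 0.12, adjusted p = 0.000901). Cdt1 was 88.4, 85.2, 82.0 and 97.5 CPM in the spleen and 52.6, 54.2 and 54.0 CPM in vitro (0.72 ± 0.08, adjusted p = 0.000369). Cdc6 (0.66 ± 0.12), Mcm7 (0.49 ± 0.07) and Mcm2 (0.38 ± 0.08) were higher in the spleen as well. The cyclins of S, G2 and mitosis (Ccna2, Ccnb1 and Ccnb2) and their kinase Cdk1 were all lower. Ccna2, the cyclin of S and G2, was 254, 245, 255 and 250.1 CPM in the spleen and 378, 389 and 367 CPM in vitro (-0.59 ± 0.06, adjusted p = 0.000276), and Cdk1, the mitotic kinase, was 128, 104, 149 and 131 CPM in the spleen and 203, 209.6 and 198 CPM in vitro (-0.66 ± 0.11, adjusted p = 0.00239). The groups did not overlap for Chek1, Cdt1, Ccna2 or Cdk1. Such a separation was common, since 22.8% of 12330 genes lay wholly lower and 25.9% wholly higher in the NFKBIE-ko spleen. Mki67 had a log2 fold change of -0.71 ± 0.29 without a call (adjusted p = 0.0874), and was called without NFKBIE-ko spleen replicate 2 (adjusted p = 0.00286).

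Averaged over the 13 replication genes and the 20 G2 and mitosis genes as log2 CPM relative to each gene's mean, the NFKBIE-ko spleens stood at 0.59 ± 0.07 (SD, n = 4) and 0.32 ± 0.10, and the NFKBIE-ko cultures at 0.27 ± 0.06 (n = 3) and 0.72 ± 0.01. The replication average minus the mitosis average was 0.0476 to 0.40 in the former and -0.53 to -0.40 in the latter. In NFKBIE-wt cells the spleens ranged from -0.28 to 0.30, with replicate 3 at -0.18 and the library labelled replicate 4 at -0.28, and the cultures from -0.43 to -0.08, so that these groups overlapped. The PC lay far below on both, at -0.66 ± 0.06 and -0.82 ± 0.24 for NFKBIE-wt and -0.72 ± 0.12 and -0.82 ± 0.17 for NFKBIE-ko cells. Erythroid, granulocyte and T-cell markers were higher in the NFKBIE-ko spleen than in vitro (7 of 8, 5 of 5 and 8 of 10 tested), and their part in these differences was not tested.

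**Figure D4:**
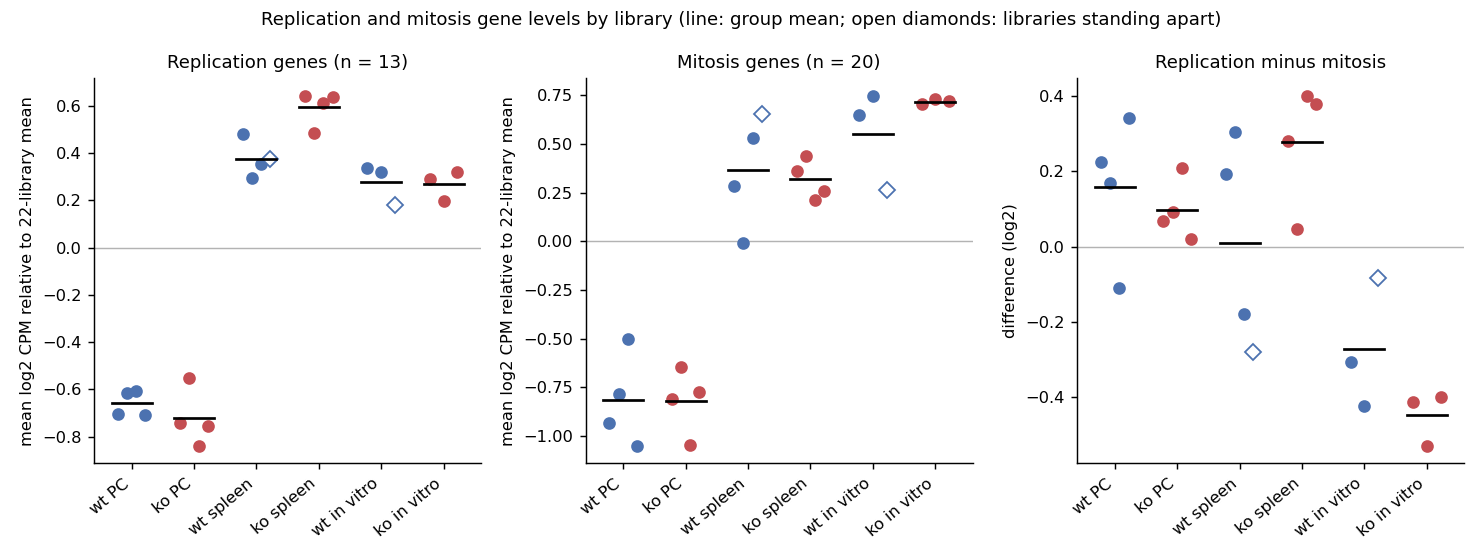
Mean over the 13 replication genes (left), mean over the 20 G2 and mitosis genes (middle), both in log2 CPM relative to the mean of each gene over the 22 libraries, and the first minus the second (right), for each library by group, with the group mean as a line and open diamonds for the 2 libraries that stood apart. The PC libraries lie below all others in the left and middle panels, and in the right panel all NFKBIE-ko spleens lie above 0 and all NFKBIE-ko cultures below 0.

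Fewer of the 39 genes were called between the genotypes than between PC and spleen or culture. In the PC 1 gene was higher and 6 were lower in NFKBIE-ko cells, against 22.5% and 20.9% of all 12642 genes, a smaller share than of all genes in both directions. The median log2 fold change was -0.04 over the 39 genes and -0.01 over all genes. Ccnd2, at the values given above, did not overlap between the genotypes and was higher in the NFKBIE-ko PC (0.42 ± 0.09, adjusted p = 0.00263). Without overlap, 22.1% of 12330 genes were likewise higher there. Chek1 was 56.9, 41.5, 52.3 and 41.97 CPM in the NFKBIE-wt PC and 28.1, 29.9, 28.1 and 33.2 CPM in the NFKBIE-ko PC (-0.71 ± 0.12, adjusted p = 0.000725). Only 45.5% of the counts of Chek1 were in transcripts with an annotated coding frame, and on these alone the call was lost (-0.37, adjusted p = 0.0796). Mcm7 was 216, 223, 232 and 194 CPM in NFKBIE-wt and 155, 169.5, 139 and 159.8 CPM in NFKBIE-ko cells (-0.49 ± 0.08, adjusted p = 0.000597). Cdt1 was lower as well, at 39.7, 37.8, 43.4 and 44.6 CPM in the NFKBIE-ko PC (-0.39 ± 0.07, adjusted p = 0.00167), as were Ccnb2 (-0.43 ± 0.09), Bub1b (-0.43 ± 0.13) and Mcm6 (-0.21 ± 0.07).

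The general proliferation markers were not called in the PC, with 0.07 ± 0.24 for Mki67 and -0.04 ± 0.08 for Mcm2, and neither was Ccnd3 (-0.26 ± 0.12, adjusted p = 0.0919), which was called without NFKBIE-wt PC replicate 2 (adjusted p = 0.0416). Per transcript the 2 starts of Ccnd3 went in opposite directions, with Ccnd3-215 lower (-0.59, adjusted p = 0.0478) and Ccnd3-205 higher (1.22, adjusted p = 0.02) in the NFKBIE-ko PC. In a fit of all 22 libraries 0 genes were higher and 3 were lower, and with a threshold of 1 on the log2 fold change 0 were called in either direction. The share of all genes under these settings is not given. These changed counts therefore cannot be told apart from settings that call fewer genes in general. All 9 myeloid markers and 8 of 10 T-cell markers were higher in the NFKBIE-ko PC than in the NFKBIE-wt PC, and their part in the genotype effect was not tested.

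In the spleen 1 gene was higher and 0 were lower in NFKBIE-ko cells, against 2.30% and 3.13% of all 12221 genes. Cdc6, at the values given above, did not overlap between the genotypes (0.57 ± 0.13, adjusted p = 0.0357), and the median over the 39 genes was 0.02. Wholly higher in the NFKBIE-ko spleen were 7.99% of 12330 genes. The call for Cdc6 was lost on leaving out any 1 of 6 of the 8 libraries (adjusted p = 0.0635 to 0.106). Without the spleen labelled NFKBIE-wt replicate 4, Cdc6 (0.60), Mcm3 (0.44) and Mcm5 (0.45) were higher and Ccnd3 (-0.72, adjusted p = 0.0193) and Chek1 (-0.73, adjusted p = 0.0374) were lower, against 5.48% and 6.68% of all genes. With that library Ccnd3 was -0.50 ± 0.27 and Chek1 was -0.51 ± 0.29. Mki67 (-0.40 ± 0.39) and Mcm2 (0.24 ± 0.10, adjusted p = 0.195) were not called in the spleen with all libraries, and neither was Ccnd2 (0.47 ± 0.23, adjusted p = 0.253).

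In vitro 0 of the 39 genes were called by edgeR in either direction, against 0.0341% (higher) and 0% (lower) of all 11722 genes, and 1 gene, Mcm7 (-0.30 ± 0.12), had an unadjusted p below 0.05. The largest differences in size were those of Ccnd3 (-1.04 ± 0.54) and Chek1 (-0.72 ± 0.35), and without the culture labelled NFKBIE-wt replicate 3, which left 2 against 3 libraries and again 0 called genes against 0.059% and 0.0169% of all genes, Ccnd3 was -0.13 and Chek1 was -0.18. Ccnd2 was 0.45 ± 0.24 in vitro and 0.26 ± 0.20 without that library, and was not called in either. Mki67 (-0.05 ± 0.15) and Mcm2 (-0.06 ± 0.09) were not called.

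**Figure D5:**
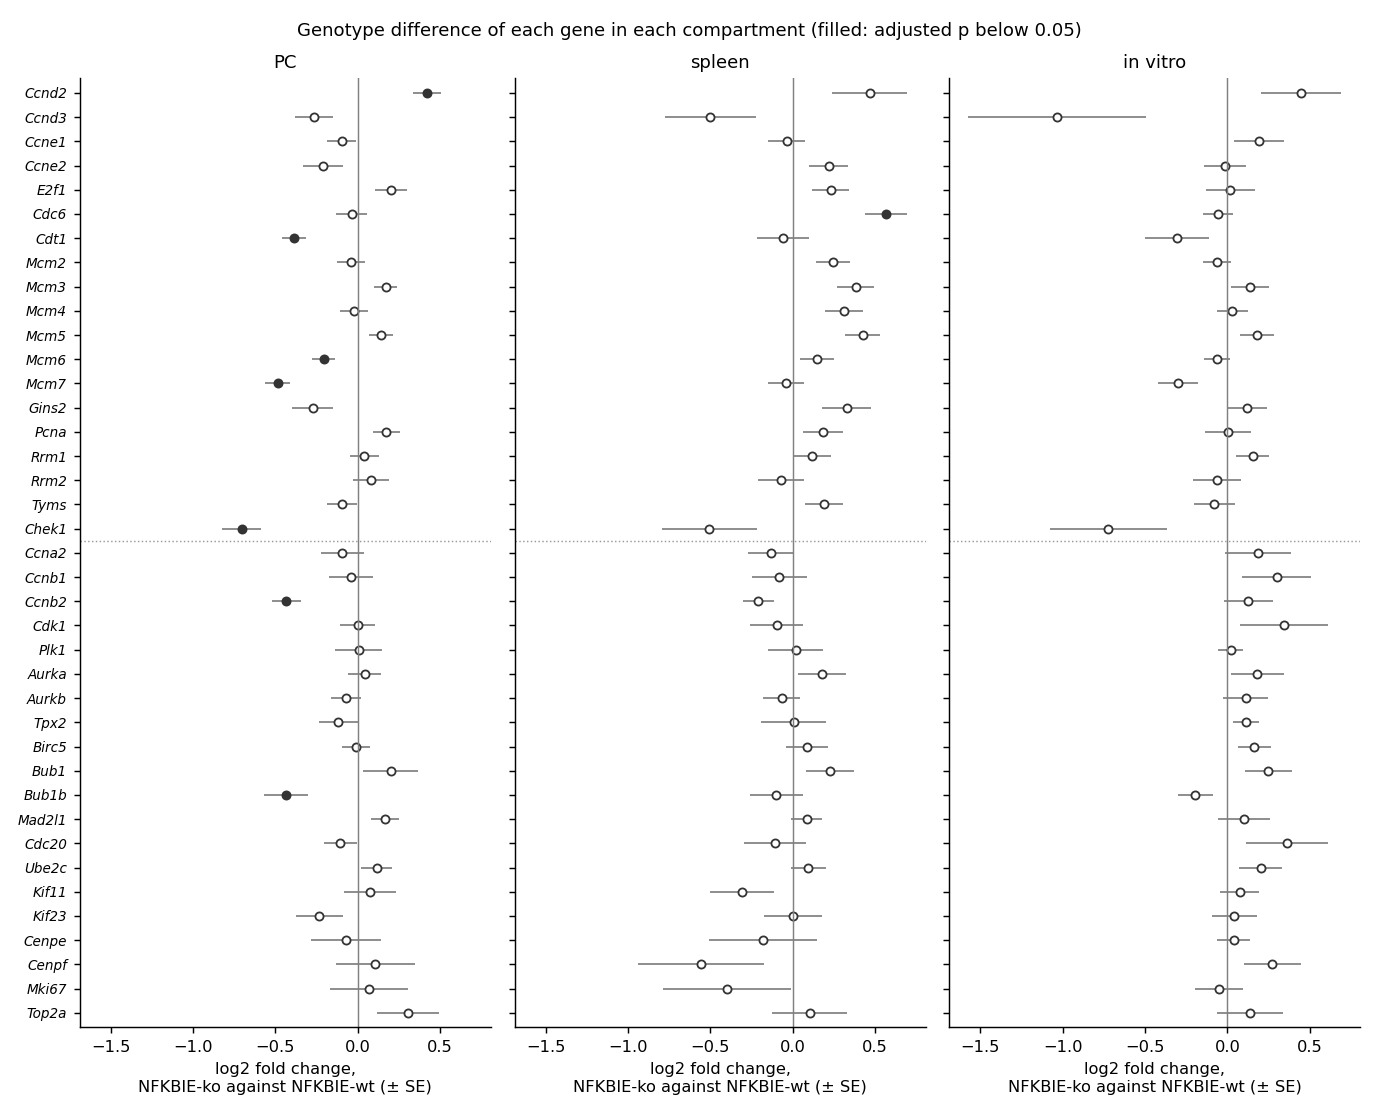
Log2 fold change (± SE) between NFKBIE-ko and NFKBIE-wt cells for each of the 39 genes in the PC, the spleen and in vitro, with called genes as filled points. In the PC 7 genes were called and in the spleen only Cdc6, and in vitro none of the 39.

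Whether the genotype effect differed between compartments was tested in a fit of all 22 libraries. The effect on Cdc6 was larger in the spleen than in the PC by 0.60 ± 0.15 (adjusted p = 0.0236), a call that was lost on leaving out any 1 of 5 of the 16 libraries of PC and spleen (replicate 1 or 2 of the NFKBIE-wt PC, 3 or 4 of the NFKBIE-ko PC or 1 of the NFKBIE-ko spleen, adjusted p = 0.0516 to 0.0641). Here 1 of the 39 genes had a larger and 0 a smaller effect, against 2.17% and 2.75% of all 13537 genes. The effect on Ccnb2 was larger in vitro than in the PC by 0.55 ± 0.15 (adjusted p = 0.0441), a call that was lost on leaving out any 1 of 12 of the 14 libraries of PC and culture (adjusted p = 0.0602 to 0.122), all but NFKBIE-wt in vitro replicate 2 and NFKBIE-ko PC replicate 4. This was again 1 gene larger and 0 smaller, against 0.975% and 3.83% of all genes. Without the spleen labelled NFKBIE-wt replicate 4 and the culture labelled NFKBIE-wt replicate 3, Cdc6 (0.65) and Mcm7 were called for spleen against PC, against 3.86% (larger) and 4.39% (smaller) of all genes, and Ccnb2 (0.46, adjusted p = 0.0813) was not called for in vitro against PC. The effect on Ccnd2 differed by 0.04 ± 0.28 and 0.02 ± 0.31 and on Mki67 by -0.47 ± 0.45 and -0.13 ± 0.48.

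Genes of the same pathways outside the 39 were read from lists of further replication genes (27), mitosis genes (33), G1 kinases and their partners (8) and genes that restrain the cycle (14, of which 13 could be tested). Of the replication genes, which include polymerase subunits and the clamp loader, 25 were lower in the PC than in the spleen in NFKBIE-wt and 27 in NFKBIE-ko cells, and of the mitosis genes 31 in both genotypes, with medians of -0.84 and -1.23 for replication and of -1.08 and -1.09 for mitosis (14.3% and 30.1% of all genes were lower). Against the cultures 23 and 27 replication genes and 31 and 31 mitosis genes were lower, with 11.0% and 31.8% of all genes. In NFKBIE-ko cells 10 replication genes were higher and 0 were lower in the spleen than in vitro, whereas 1 mitosis gene was higher and 10 were lower, with 20.3% of all genes higher and 18.4% lower.

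Genes that restrain the cycle did not move as one. Cdkn1a (p21), an inhibitor of cyclin-dependent kinases, was 28.3 to 43.8 CPM in the NFKBIE-wt PC and 8.82 to 13.1 CPM in the NFKBIE-wt spleen (1.68 ± 0.17, adjusted p = 0.000516). In NFKBIE-ko cells it was higher in the PC than in the spleen by 1.803 ± 0.28, and Cdkn1b (p27) was higher by 0.77 ± 0.10 and 0.77 ± 0.12 in NFKBIE-wt and NFKBIE-ko cells. Cdkn2c (p18), which inhibits CDK4 and CDK6, was lower by -0.69 ± 0.12 and -0.62 ± 0.10. In all, 2 restraint genes were higher and 3 were lower in the NFKBIE-wt PC than in the spleen, and 7 and 5 in the NFKBIE-ko PC, of 13 tested. Of all genes 14.3% were higher and 14.3% lower in the former and 29.6% and 30.1% in the latter.

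Between the genotypes in the PC, 0 replication genes were higher and 9 were lower, among them the clamp loader genes Rfc2, Rfc3, Rfc4 and Rfc5, 3 mitosis genes were higher and 6 were lower, and 3 G1 genes were higher and 1 was lower, with 22.5% of all genes higher and 20.9% lower. The mitosis genes were thus called lower about as often as all genes. Cdk6, a partner of the D-type cyclins, was lower in NFKBIE-ko cells by -1.11 ± 0.15 in the PC and by -0.89 ± 0.16 in the spleen, and its difference in vitro was -0.89 ± 0.33 without a call. Cdk4 was higher by 0.20 ± 0.07 in the PC. Ccnd1, a D-type cyclin that macrophages and stromal cells express, was 17.1 to 28.0 CPM in the NFKBIE-ko PC, 0.835 to 3.36 CPM in the NFKBIE-wt PC and at most 1.38 CPM in the spleens (3.25 ± 0.34 between the genotypes in the PC). It moved with the myeloid markers, and their part in it was not tested. Of the restraint genes, Cdkn1a (0.55 ± 0.16) was higher and Cdkn1b (-0.21 ± 0.06) and Cdkn2c (-0.35 ± 0.12) were lower in the NFKBIE-ko PC.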

How the data were processed

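RNA of 22 samples was sequenced as paired-end libraries, and the authors quantified transcripts with Salmon 1.8 on GRCm39 and deposited expected counts (estimated counts per transcript) without normalization. The sources give read lengths that differ, the tissue label names blood throughout, and the description of NFKBIE-ko samples opens with the NFKBIE-wt name, so that groups were taken from title and source. The deposited table holds 62492 transcripts, each above 0 in at least 5 samples, and 69.5% of its values were not whole. Of these, 62147 matched GENCODE (17023 genes, 201 transcripts of the 39 genes), and 0.619% of counts did not. Counts were summed per gene and rounded.

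Pairs of groups were tested with edgeR 4.0.16 in R 4.3.3 (filterByExpr, TMM, robust quasi-likelihood test, Benjamini-Hochberg adjustment over all genes tested), and differences of the genotype effect in a fit of all 22 samples. Differences are log2 fold changes with their standard errors. CPM were computed from the counts with the scaled library sizes, and TPM from the counts and the annotated lengths. Full statistics are given for Mki67, Mcm2, Ccnd2 and Ccnd3 and for up to 3 genes per direction with the lowest p in each comparison, and other genes were named after their values had been seen. The members and lists were chosen with earlier results of these data known. A marker of the lists is not reported here. Tests were checked on simulated data, in which the spread was the same for all genes and groups and no library stood apart. That check does not cover the groups that hold the libraries that stood apart. Replicate numbers were not used to pair the samples in the main tests. PC and spleen samples of a genotype came from the same set of recipient mice, and which libraries share a mouse is not given. They were tested as separate groups. Deviations of 31 same-numbered pairs correlated from -0.336 to 0.454, with 7 above 0.1. Of the pairs of PC and spleen, 1 of 4 in NFKBIE-wt and 3 of 4 in NFKBIE-ko cells were above 0.1, so that pairing by mouse was not settled. Replicates differed by more than sampling noise (chi-square per degree of freedom 7.12 to 213). The p-values measure the spread between these samples. Alternatives used DESeq2 1.42.0, limma 3.58.1, other filters, scalings and fits, coding transcripts, single transcripts, and each library left out. The libraries hold about the same total, so that depth did not separate the groups.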

Additional observations from a re-analysis of the deposited data

Results flagged for a closer look

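In the NFKBIE-wt PC, Ccnd2 was 147.4 CPM in replicate 3 and 124.9 to 127.4 CPM in the other 3 libraries, a gap that exceeded Dixon's 95% critical value. Of 32 sets of 4 libraries examined for the named genes, this was the only such case, and chance gives about 1 in 20. The genotype effect on Ccnd2 in the PC stayed between 0.37 and 0.48 on the log2 scale, with adjusted p from 0.00193 to 0.00949, when each of the 8 libraries was left out in turn.

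The genotype effect on Cdc6 was larger in the spleen than in the PC by 0.5968 on the log2 scale. That on Ccnb2 was larger in vitro than in the PC by 0.5529, and both came from the test of the difference itself. The first was also called without the spleen labelled NFKBIE-wt replicate 4 and the culture labelled NFKBIE-wt replicate 3, and the second was not (adjusted p = 0.0813). With 1 library left out at a time, the first call was lost in 5 of 16 fits (adjusted p up to 0.0641) and the second in 12 of 14 (adjusted p up to 0.122).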

How the results depend on the processing

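The median log2 fold change of the 39 genes moved by less than the spread between replicates in all 203 recomputations, and the lower level in the PC kept its direction. Counts of called genes changed as follows, here and below. The share of all genes under each setting is not given beside them. A changed count therefore cannot be told apart from a setting that calls more or fewer genes in general. With a threshold of 1 on the log2 fold change, 21 genes (NFKBIE-wt) were lower in the PC than in the spleen, and 22 and 24 than in vitro in NFKBIE-wt and NFKBIE-ko cells. The same threshold left 0 higher and 0 lower between the genotypes in the PC, 0 higher in the spleen, 0 higher and 1 lower for NFKBIE-ko spleen against in vitro, and 0 for both differences of the genotype effect. Between the genotypes in the PC, DESeq2 gave 2 higher, and the fit of all 22 samples 0 higher and 3 lower. Between the genotypes in the spleen, the stricter filter gave 2 higher, DESeq2 3, limma voom 6 higher and 1 lower, the fit of all 22 samples 4 and the most abundant transcript 0. In the NFKBIE-wt PC the most abundant transcript gave 0 higher against the spleen, and DESeq2, limma voom and the fit of all 22 samples 1 higher against in vitro. For NFKBIE-ko spleen against in vitro, limma voom gave 17 lower and the most abundant transcript 6 higher and 5 lower, and for NFKBIE-wt, leaving out both libraries that stood apart gave 3 higher and 1 lower. For the genotype effect in the spleen minus the PC, the stricter filter gave 3 larger, DESeq2 4, limma voom 5, coding transcripts 4 and leaving out both libraries 2. For in vitro minus the PC, the size factors of DESeq2, no filter and leaving out both libraries gave 0. The causes were not tested.

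Whether the replicate numbers pair samples by mouse is not known. With the replicate number as a block, 0 genes were lower in the NFKBIE-wt PC than in vitro, 0 were higher between the genotypes in the spleen, and 7 were higher and 6 lower in the NFKBIE-ko spleen than in vitro, and Ccnd2 in the PC against in vitro turned to 0.0051 and 0.0001. Other reversals were of uncalled genes near 0. They were Mcm2 between the genotypes in the PC (0.0198, most abundant transcript), Ccnd2 for spleen minus PC (-0.0223 with limma voom, -0.038 without both libraries) and for in vitro minus PC (-0.01 with the size factors of DESeq2 and -0.01 with DESeq2, and -0.17 without both libraries), and Ccnd3 for in vitro minus PC (0.13 without both libraries).

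Leaving out 1 library at a time gave 1 to 3 higher genes between the genotypes in the PC, 0 to 3 higher and 0 to 2 lower in the spleen, 0 to 1 higher in the NFKBIE-wt PC against the spleen and against in vitro, 6 to 14 higher and 6 to 15 lower for NFKBIE-ko spleen against in vitro, 0 to 3 larger effects for spleen minus PC and 0 to 1 for in vitro minus PC. Among uncalled genes that changed sign, Mki67 ranged from -0.0513 to 0.3088 between the genotypes in the PC, from -0.1435 to 0.0842 in vitro and from -0.369 to 0.0169 for in vitro minus PC. Mcm2 ranged from -0.0986 to 0.0136 between the genotypes in the PC and from -0.093 to 0.0252 for in vitro minus PC. Ccnd2 ranged from -0.2554 to 0.225 and from -0.1692 to 0.0076 in the PC against in vitro (NFKBIE-wt and NFKBIE-ko), from -0.1243 to 0.2505 for spleen minus PC and from -0.1837 to 0.2969 for in vitro minus PC. Ccnd3 ranged from -0.0367 to 1.1695 for NFKBIE-wt spleen against in vitro and from -1.1188 to 0.1138 for in vitro minus PC, where leaving out the culture labelled NFKBIE-wt replicate 3 gave 0.1138. With 3 or 4 libraries in a group, differences below about 1 on the log2 scale were not always detectable in vitro.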
